A study of Mus musculus with 8 samples.

Results

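Steroid hormone signaling in the mammary gland was followed through 6 genes, chosen by name and found by Entrez Gene ID among the 24594 genes of the deposited count table. They were the estrogen receptor Esr1, the progesterone receptor Pgr, the estrogen target Greb1, the transcriptional coactivator Cited1, the ligand RANKL (Tnfsf11) and its receptor RANK (Tnfrsf11a). All 6 genes had a row in the table. RNA had been taken from 2 luminal fractions of mammary glands of untreated wild-type mice aged 12 to 20 weeks, labeled as C57BL/6J, which carried no transgene. The study's methods name C57BL/6JRj as a further source of wild-type mice. Luminal progenitors (LP) were the cells high in c-Kit, mature luminal cells were those low in c-Kit, and each fraction was represented by 4 libraries. By their labels, the cells were sorted on EpCAM, CD49f, c-Kit and CD14, after blood and endothelial cells had been removed with TER-119, CD45 and CD31. Each library was built from a small amount of RNA with a low-input cDNA amplification kit, and the stage of the estrous cycle is not given in the sources used here.

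In the adult gland, estrogen and progesterone act on the luminal cells that carry their receptors, and much of the growth response of the gland is passed on by secreted factors to neighboring cells without receptors. Estrogen receptor activates Pgr and, in many cells, Greb1, and Cited1 binds the estrogen receptor and assists the expression of some of its targets. Progesterone receptor drives expression of RANKL, which binds RANK on neighboring luminal progenitors and on basal cells and there activates NF-kappaB.

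The genes lie on 6 chromosomes of the GRCm38.p6 build. Esr1 (Entrez Gene 13982) spans chr10:4611989-5005633, Pgr (18667) spans chr9:8898900-8968611 and Greb1 (268527) spans chr12:16670615-16801394. Cited1 (12705) spans chrX:102247378-102252181, Tnfsf11 (21943) spans chr14:78277446-78308043 and Tnfrsf11a (21934) spans chr1:105780673-105849444. Sequence before the outermost start of 3 genes is shown because these 3 had the largest difference between the fractions (Cited1), the counts confined to a single library (Tnfsf11) and the opposite direction (Tnfrsf11a). The sequences are from RefSeq, GRCm38.p6, and run 5′ to 3′ on the strand of the gene, with the letters TATAAA, on either strand, in capitals. The Cited1 and Tnfsf11 windows hold the 250 bases before the start, at chrX:102252182-102252431 and chr14:78308044-78308293, both on the minus strand. The Tnfrsf11a window, on the plus strand at chr1:105780473-105780672, shows 200 bases that end at the outermost start of the gene, while the search covered the 250 bases before the next annotated start, chr1:105780473-105780722.
Cited1: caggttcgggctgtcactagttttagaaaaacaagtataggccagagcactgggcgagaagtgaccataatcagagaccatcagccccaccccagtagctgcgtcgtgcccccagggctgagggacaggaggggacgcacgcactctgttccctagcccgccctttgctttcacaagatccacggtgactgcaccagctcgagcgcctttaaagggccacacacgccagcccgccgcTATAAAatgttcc
Tnfsf11: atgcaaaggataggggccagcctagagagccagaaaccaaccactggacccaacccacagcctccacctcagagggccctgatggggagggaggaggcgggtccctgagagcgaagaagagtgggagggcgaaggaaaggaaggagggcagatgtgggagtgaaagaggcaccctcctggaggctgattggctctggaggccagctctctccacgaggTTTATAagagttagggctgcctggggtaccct
Tnfrsf11a: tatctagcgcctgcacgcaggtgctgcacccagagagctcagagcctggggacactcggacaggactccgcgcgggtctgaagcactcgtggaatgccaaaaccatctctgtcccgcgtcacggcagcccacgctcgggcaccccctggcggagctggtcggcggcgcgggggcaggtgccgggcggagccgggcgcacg
TATAAA letters began 13 bases before the start of Cited1 and 32 bases before that of Tnfsf11, and the 250 bases searched for Tnfrsf11a had none. Of 32851 promoter entries, each searched over 250 bases, 12.4% held these letters. The same windows were searched on both strands for the estrogen response element repeat AGGTCA, the full inverted-repeat estrogen response element, the progesterone and glucocorticoid receptor repeat AGAACA, the forkhead core TGTTTNC and the GATA core AGATAA. None of these was found in the 3 windows. The 6 genes had 10 promoter entries in all. Among the entries not shown, AGGTCA occurred once for Cited1, at chrX:102250777-102251026, and once for Greb1, at chr12:16800887-16801136. The forkhead core occurred once for Esr1, at chr10:4611739-4611988. Over all entries, 14% held AGGTCA and 16.1% held AGAACA. The full element contains part of the AGGTCA repeat, so these counts overlap. A match describes letters in a short window and is not a binding site.

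Total counts on genes ranged from 5510863 to 7089597 in the LP libraries and from 4410049 to 7791593 in the mature libraries. Levels are given as CPM, which are counts scaled to a common library size with edgeR's TMM factors, and levels of different genes are compared only as CPM per kb of merged annotated exons. These lengths take in the exons of all annotated transcripts of a gene, so comparisons between genes depend on them. The 6 luminal progenitor markers (Kit, Elf5, Cd14, Aldh1a3, Csn3, Trf) summed to between 30774 and 42516 CPM in LP libraries and to between 629 and 3740 CPM in mature libraries. The 6 markers of mature hormone-sensing cells (Foxa1, Prlr, Areg, Ly6a, Prom1, S100a6) summed to between 845 and 1632 CPM in LP and between 4930 and 7258 CPM in mature libraries. Both fraction labels matched these sums, but c-Kit and CD14 were sorted on, so Kit and Cd14 could not test the labels. The progenitor markers that were not sorted on, Elf5, Aldh1a3, Csn3 and Trf, also had every LP library above every mature library. Of the hormone-sensing markers, Foxa1, Prlr and Prom1 had every mature library above every LP library, while Areg, Ly6a and S100a6 overlapped. Prlr made up most of their sum in each mature library. Mature library 3 stood apart from the other mature libraries: its progenitor markers had the highest sum of the mature libraries. It is named beside many, though not all, of the results it touches. In that library the 6 markers ranged from 2.28% (Cd14) to 55.6% (Aldh1a3) of the LP mean, with Csn3 at 11.7%, Trf at 13.9%, Kit at 27.2% and Elf5 at 51.6%, and all but Aldh1a3, which was higher in mature library 4 (59.3%), were at their highest mature level there. The 9 basal markers summed to at most 115 CPM, again in mature library 3, and the 6 fibroblast markers to between 7.35 and 41.7 CPM in LP and between 27.0 and 179 CPM in mature libraries. Endothelial and immune markers summed to at most 8.48 and 53.1 CPM, with Kdr and Cd3e at 0 in all 8 libraries.

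Esr1, Pgr and Cited1 were higher in mature cells and Tnfrsf11a was higher in LP. Of the 6 genes, 4 passed the filter on low counts and were tested, and all 4 had an adjusted p under 0.05 in edgeR's quasi-likelihood test with Benjamini-Hochberg adjustment, 3 with higher expression in mature cells and 1 in LP. Among all 12816 genes tested, 24.7% passed this threshold, 13.8% with higher expression in mature cells and 10.9% in LP. Greb1 and Tnfsf11 had too few counts for the filter and are given by their values. The labels do not say that the samples came from separate animals, so the p-values measure only the spread between these samples. In sorted bulk samples, fewer cells expressing a gene and less RNA per cell cannot be told apart.

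**Figure D1:**
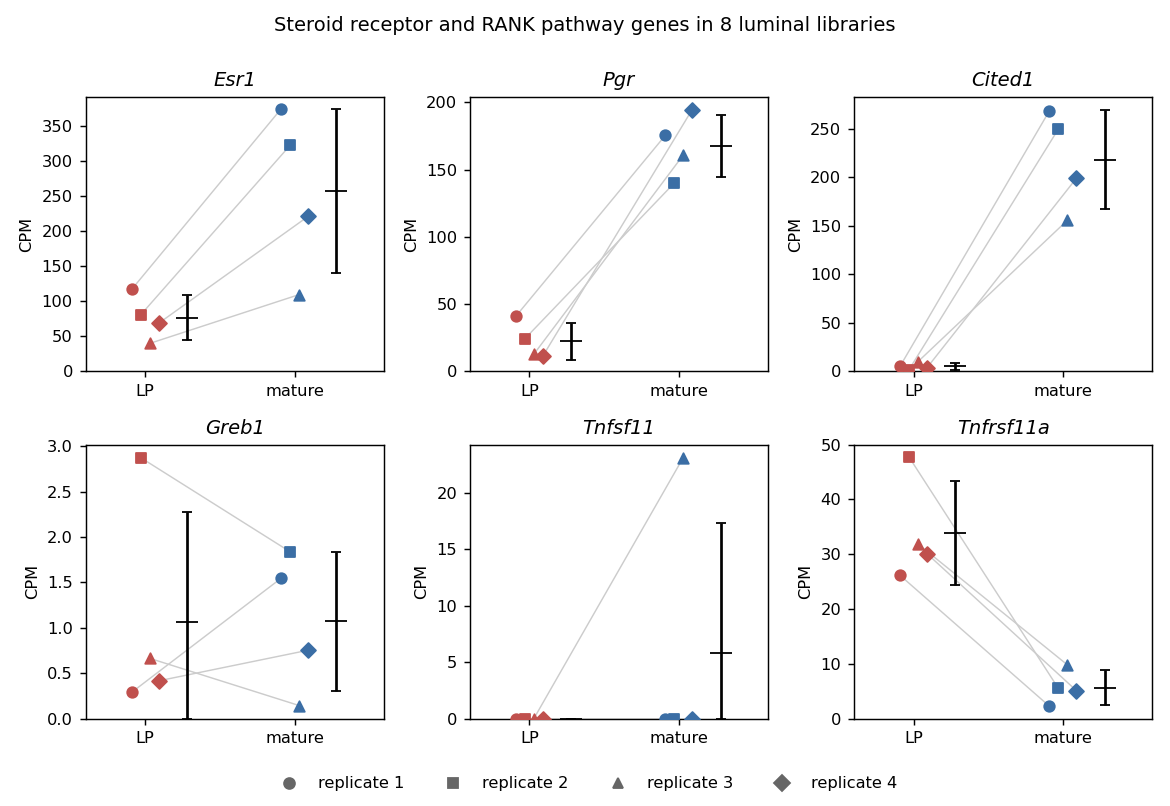
CPM (y axis, linear, from 0) of the 6 genes in the LP (red) and mature (blue) libraries. Symbols mark the replicate number, grey lines join libraries with the same number, and black bars give the mean ± SD (n = 4) with the lower bar stopped at 0. Pgr, Cited1 and Tnfrsf11a separate the fractions fully, Esr1 overlaps through mature library 3 (109 CPM) and LP library 1 (117 CPM), and Tnfsf11 has counts only in mature library 3.

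Esr1, the nuclear receptor that binds estradiol, was at 117, 80.4, 39.5 and 68.3 CPM in LP libraries 1 to 4 and at 374, 322, 109 and 221 CPM in mature libraries 1 to 4. The mature libraries were the higher ones except for mature library 3, which lay just below LP library 1, so the groups overlapped. The means were 76.2 ± 32.0 CPM in LP and 256 ± 117 CPM in mature cells (SD, n = 4), a 3.36-fold difference with a log2 fold change, LP over mature, of -1.75 (SE 0.397, 95% interval -2.63 to -0.872) and an adjusted p of 0.00956 by edgeR. An exact two-sided permutation test of log2 CPM gave p = 0.0571, where 4 against 4 libraries allow no value below 0.0286. Between libraries with the same replicate number, Esr1 was higher in the mature library in 4 of 4 comparisons, by 2.76 to 4.01-fold. The lowest mature library thus shared its number with the lowest LP library. Fibroblast markers summed to 138, 179, 28.3 and 27.0 CPM in mature libraries 1 to 4, and in libraries 1 and 2 most of this sum was Dcn. Dcn was at 132, 154, 14.1 and 20.6 CPM, so it was highest in libraries 1 and 2, those with the most Esr1. None of the other fibroblast markers had its 2 highest mature levels in these libraries, and Col1a2 was highest in mature library 3. The part of fibroblast RNA in the Esr1 difference was not tested. Without both libraries numbered 2, the log2 fold change was -1.62 with an adjusted p of 0.0654 by edgeR, which no longer passed.

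Pgr, the progesterone receptor and a classical estrogen receptor target, was at 40.9, 24.2, 12.6 and 11.2 CPM in LP and at 175, 140, 161 and 195 CPM in mature libraries. Every mature library was above every LP library, and mature library 3 was within the range of the other mature libraries. The mean was 22.2 ± 13.8 CPM in LP and 168 ± 23.1 CPM in mature cells (SD, n = 4). Pgr was 7.53-fold higher in mature cells, with a log2 fold change of -2.91 (SE 0.376, 95% interval -3.74 to -2.08), an adjusted p of 0.000678 by edgeR and an exact permutation p of 0.0286, the smallest possible here. Such a separation of all libraries was found for 29.5% of all tested genes, for 15.5% with mature cells higher. The folds between same-numbered libraries, 4.29, 5.80, 12.7 and 17.3, varied more than those of Esr1.

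The receptors differed in how they varied among the mature libraries. Per kb of exon, mean Esr1 was 18.8 ± 8.57 and mean Pgr 19.6 ± 2.70 CPM per kb in mature cells, levels that did not differ beyond their spread. In LP, they were at 5.58 ± 2.34 and 2.60 ± 1.61 CPM per kb (SD, n = 4). The ratio of Esr1 to Pgr per kb was 1.33, 1.44, 0.425 and 0.709 in mature libraries 1 to 4 and 1.78, 2.08, 1.96 and 3.80 in LP libraries 1 to 4. Every LP library had the higher ratio, and mature library 3 had the lowest, with Esr1 low and Pgr not. No test of this ratio was run.

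**Figure D2:**
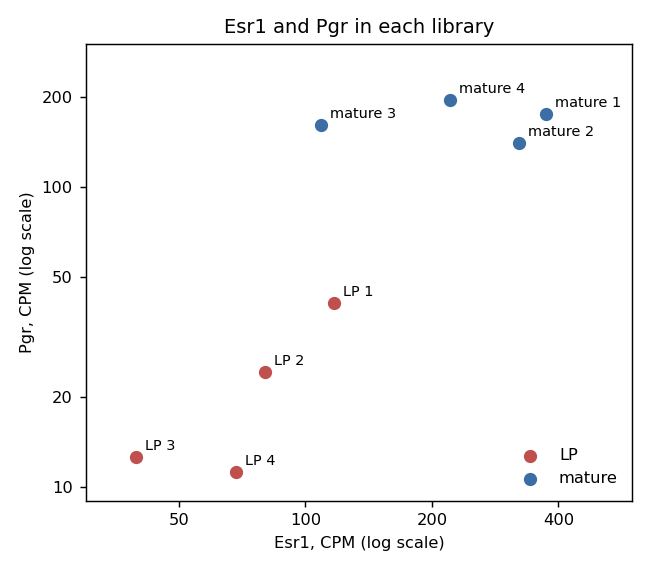
Pgr (y axis) against Esr1 (x axis), both in CPM on log scales, with 1 point for each of the 4 LP (red) and 4 mature (blue) libraries. The mature libraries lie between 140 and 195 CPM of Pgr while their Esr1 spans 109 to 374 CPM, and LP library 1 is the LP library with the highest level of both.

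Both receptors were detected in every LP library. Relative to the mature mean, LP libraries held 45.5%, 31.3%, 15.4% and 26.6% of Esr1 and 24.4%, 14.4%, 7.52% and 6.70% of Pgr. LP library 1 was the highest for both receptors. It was also the LP library with the highest sum of the hormone-sensing markers, 1632 CPM against 990, 845 and 1230 CPM in LP libraries 2 to 4. These markers did not all go the same way. Foxa1, Prlr and Prom1 were highest in LP library 1, Areg in LP library 2, and Ly6a and S100a6 in LP library 4. The part of hormone-sensing cells in the LP receptor levels was not tested. Without LP library 1, the log2 fold change was -2.03 for Esr1 and -3.38 for Pgr, so both differences were then larger.

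Cited1, the coactivator, showed the largest difference of the 6 genes. It was at 5.08, 1.58, 9.79 and 3.47 CPM in LP and at 269, 250, 156 and 199 CPM in mature libraries. No LP library came near the mature range, and LP library 3 was the highest LP library while mature library 3 was the lowest mature one. Cited1 was 44.2-fold higher in mature cells (4.98 ± 3.51 against 218 ± 51.1 CPM, SD, n = 4), with a log2 fold change of -5.47 (SE 0.457, 95% interval -6.47 to -4.46), an adjusted p of 0.000114 by edgeR and an exact permutation p of 0.0286. LP libraries held only 0.725% to 4.49% of the mature mean of Cited1, a far smaller share than of Esr1 or Pgr. Same-numbered libraries differed by 15.9 to 158-fold, the smallest fold being that of the libraries numbered 3.

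Per kb of exon, Cited1 reached 124 ± 29.1 CPM per kb in mature cells, above 96.6% of the 12194 tested genes with a known exon length. Esr1 and Pgr in mature cells lay above 78.2% and 79.0% of these genes, and did not differ from each other beyond their spread. In LP, Tnfrsf11a (5.67 ± 1.59 CPM per kb) and Esr1 led the 6 genes, above 50.5% and 50.02% of tested genes, and these neighbors did not differ beyond their spread. Cited1 at 2.84 ± 2.003 and Pgr at 2.60 ± 1.61 CPM per kb followed, again within each other's spread. Tnfrsf11a in mature cells was at 0.948 ± 0.521 CPM per kb, above 13.2% of genes. Greb1 was at 0.111 and 0.112 CPM per kb in LP and mature cells, below nearly all tested genes.

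Greb1, an estrogen-induced gene in breast cancer cells, had few counts in either fraction. There were 2, 20, 4 and 3 counts in LP libraries 1 to 4 and 11, 7, 1 and 5 counts in mature libraries 1 to 4. LP library 2 was the highest and mature library 3 the lowest of the 8, and the groups overlapped. The level was 1.06 ± 1.22 CPM in LP and 1.07 ± 0.769 CPM in mature cells (SD, n = 4), and the mature library was the higher one in 2 of 4 same-numbered comparisons. With no filter on low counts, edgeR gave a log2 fold change of 0.0856 with a 95% interval from -2.12 to 2.29 and an adjusted p of 0.973, so a difference of about 4-fold either way was not detectable at this depth. Annotated exons of the gene Gm48140 cover 7.68% of the Greb1 exon length, and reads there could belong to either gene. The direction seen for Esr1 and Pgr was therefore not measurable for this estrogen target.

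Tnfsf11 had counts in 1 of the 8 libraries. RANKL counts were 0 in LP libraries 1 to 4 and 0, 0, 160 and 0 in mature libraries 1 to 4. The 160 counts of mature library 3 came to 23.1 CPM, with an exact Poisson 95% interval of 19.7 to 27.0 CPM that covers counting error only. In the other 7 libraries, 0 counts allow a level of up to 3 counts, which is between 0.416 and 0.788 CPM, so mature library 3 was at least 29.3-fold higher than the highest of these limits. Per kb, Tnfsf11 in that library was at 10.3 CPM per kb, beside 7.99 for Esr1, 18.8 for Pgr and 1.64 for Tnfrsf11a. No difference between the fractions can be drawn from a single library, and without it Tnfsf11 was at 0 everywhere. With no filter on low counts, edgeR gave an adjusted p of 0.0993 for Tnfsf11 (unadjusted p = 0.0211), which did not pass. Pgr in mature library 3 (161 CPM) was within the range of the mature libraries that had no Tnfsf11 counts. The part of the progenitor and basal markers of that library in the Tnfsf11 counts was not tested.

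Tnfrsf11a, which encodes RANK, went the other way. It was at 26.1, 47.7, 31.9 and 30.1 CPM in LP and at 2.25, 5.52, 9.82 and 5.12 CPM in mature libraries. Every LP library was above every mature library, and mature library 3 was the highest mature one. Tnfrsf11a was 5.96-fold higher in LP (33.96 ± 9.49 against 5.68 ± 3.12 CPM, SD, n = 4), with a log2 fold change of 2.58 (SE 0.421, 95% interval 1.65 to 3.51), an adjusted p of 0.00200 by edgeR and an exact permutation p of 0.0286. Among all tested genes, 14% had every LP library above every mature library. The residual Tnfrsf11a in mature libraries, 6.63%, 16.2%, 28.9% and 15.1% of the LP mean, was beside Kit at 6.51%, 6.28%, 27.2% and 11.2%. Mature library 3 was the highest for both genes. Without mature library 3 the Tnfrsf11a difference was larger, with a log2 fold change of 3.03 and an adjusted p of 0.000735 by edgeR. The ligand and its receptor were thus both counted in mature library 3, and only the receptor in the other 7 libraries.

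**Figure D3:**
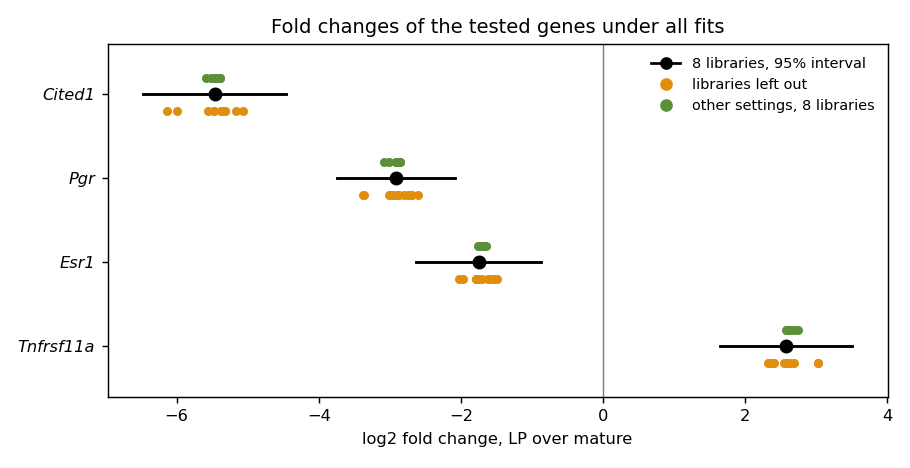
Log2 fold change of LP over mature cells (x axis) for the 4 tested genes. Black points and lines are the estimates with their 95% intervals from all 8 libraries, orange points are fits with libraries left out and green points are other settings with 8 libraries. No fit changed the sign of any of the 4, and the estimates ran from -6.14 to -5.07 for Cited1, from -3.38 to -2.60 for Pgr, from -2.03 to -1.48 for Esr1 and from 2.32 to 3.03 for Tnfrsf11a.

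Of 12 steroid and related nuclear receptors and membrane receptors, 11 were tested, 4 were higher in mature cells (Esr1, Pgr, Esrrb, Esrrg) and 0 were higher in LP. Esr1 and Pgr among these 4 were already reported above. Over all tested genes, 13.8% were higher in mature cells and 10.9% in LP, and these shares apply to each list below. The median log2 fold change of the list was -0.430, where the median over all tested genes was near 0. The estrogen-related receptor Esrrg was at 14.3 ± 3.88 CPM in LP and 38.6 ± 14.2 CPM in mature cells, a log2 fold change of -1.43 with an adjusted p of 0.00885 by edgeR. Its relative Esrrb was at 1.04 ± 0.731 and 7.05 ± 2.37 CPM (log2 fold change -2.73). For the second estrogen receptor, Esr2, the log2 fold change was 0.03 with a 95% interval from -0.31 to 0.37, at 100 ± 13.0 CPM in LP and 98.0 ± 9.30 CPM in mature cells, an interval that does not meet that of Esr1. Per kb, Esr2 stood at 29.7 and 29.1 CPM per kb in LP and mature cells, above the mean of Esr1 in either fraction. The length used for Esr1, 13661 bp, takes in the exons of all its annotated transcripts, so this order depends on the lengths used. The glucocorticoid receptor Nr3c1 (log2 fold change 0.19) did not pass the test. The membrane estrogen receptor Gper1 had no count in any library.

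Among 15 coregulators and pioneer factors, all tested, 6 were higher in mature cells and 2 in LP, with a median log2 fold change of -0.452. Besides Cited1, Foxa1, which opens chromatin for the estrogen receptor, was 8.59-fold higher in mature cells (8.28 ± 4.85 against 70.9 ± 22.9 CPM), with an adjusted p of 0.00260 by edgeR. Tbx3, a transcription factor of hormone-sensing cells, was 3.96-fold higher in mature cells. The AP-2 factor Tfap2c (log2 fold change 2.19) and the steroid receptor coactivator Ncoa3 (1.02) were higher in LP. Tfap2c was at 13.1, 11.8, 67.7 and 19.1 CPM in mature libraries 1 to 4, so it was highest in library 3. The list therefore held genes of both directions, and Foxa1 is also among the hormone-sensing markers.

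Of 19 genes that respond to estrogen or progesterone in other settings, 13 were tested, 6 were higher in mature cells (Pgr, Areg, Wnt4, Stc2, Nrip1, Prlr), 1 was higher in LP (Xbp1), and the median log2 fold change was -1.37. Pgr among these was already reported above, and Areg and Prlr are also among the hormone-sensing markers. Amphiregulin, Areg, the EGF family ligand that passes on the estrogen signal, was at 0.581, 3.16, 1.16 and 0 CPM in LP and at 38.8, 48.3, 25.0 and 3.01 CPM in mature libraries. Mature library 4 fell below LP library 2, and the log2 fold change was -4.53 with an adjusted p of 0.00783 by edgeR and an exact permutation p of 0.0571. Wnt4, a secreted progesterone target, was 8.09-fold higher in mature cells without overlap (4.93 ± 4.11 against 39.7 ± 9.35 CPM). The prolactin receptor Prlr was at 445 ± 262 CPM in LP and 4546 ± 661 CPM in mature cells, a log2 fold change of -3.35. Xbp1, an estrogen-induced regulator of the secretory pathway, had a log2 fold change of 1.42.

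Calca, the calcitonin gene and a progesterone target, was, like Tnfsf11, highest in mature library 3. It was at 0, 0, 55.8 and 1.80 CPM in LP and at 1.97, 3.68, 177 and 6.03 CPM in mature libraries. Both libraries numbered 3 were far above the rest, the groups overlapped and Calca did not pass the test (log2 fold change -1.73, adjusted p = 0.496 by edgeR). Without mature library 3 the direction turned, with a log2 fold change of 1.91 (adjusted p = 0.450 by edgeR). Without both libraries numbered 3 it was -2.64 (adjusted p = 0.185 by edgeR), the direction seen with all libraries. In same-numbered libraries Calca was higher in the mature library in 4 of 4 comparisons, and it passed with the replicate number as a block (log2 fold change -2.35, adjusted p = 0.0266 by edgeR). Tnfsf11 was at 0 in LP library 3, where Calca was high.

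Of 21 RANK signaling genes, 20 were tested, 4 were higher in LP (Tnfrsf11a, Traf5, Id2, Elf5), 0 were higher in mature cells and 16 did not pass, with a median log2 fold change of 0.427. Tnfrsf11a was already reported above, Elf5 is also among the progenitor markers, and the list as a whole was not tested. Elf5, a transcription factor of progenitor and alveolar cells, was at 217 ± 23.8 CPM in LP and 53.6 ± 39.8 CPM in mature cells (log2 fold change 2.02). Id2, an inhibitor of differentiation factors, had a log2 fold change of 1.64, and the RANK adaptor Traf5 of 1.18. Elf5 and Id2 were highest among the mature libraries in library 3, at 112 and 165 CPM. Among the genes that did not pass were NF-kappaB subunits and the cyclin Ccnd1 (log2 fold change -0.01). Osteoprotegerin, Tnfrsf11b, the soluble decoy receptor for RANKL, was at 0.874 ± 0.596 CPM in LP and 3.98 ± 2.40 CPM in mature cells, and its log2 fold change of -2.18 did not pass after adjustment (adjusted p = 0.0869 by edgeR).

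Chaperones hold steroid receptors ready for hormone. Of 10 chaperone genes tested, 5 were higher in mature cells, 1, Stub1, was higher in LP and 4 did not pass, with a median log2 fold change of -0.542. The heat shock protein gene Dnajb1 had a log2 fold change of -3.74, and Hsp90aa1 and Hsp90ab1 of -2.89 and -1.61. Mature library 3 was the highest mature library for each of these 3 genes, and without it the log2 fold changes were -3.11 for Dnajb1, -2.32 for Hsp90aa1 and -1.03 for Hsp90ab1, all past the threshold. Stub1 (log2 fold change 0.462) had an adjusted p of 0.0447, and of 0.0665 without mature library 3, by edgeR, and 42.3% of its exon length is shared with Jmjd8.

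Of 18 genes of local steroid metabolism in the table, 10 were tested and 1 passed. This was Hsd17b12, a hydroxysteroid dehydrogenase family member, which was higher in LP (log2 fold change 1.32). Cyp1b1, which hydroxylates estradiol, was at 120, 108, 80.0 and 33.6 CPM in LP and at 0, 0, 31.3 and 2.11 CPM in mature libraries. All LP libraries were above the mature ones, yet Cyp1b1 missed the threshold with an adjusted p of 0.0566 by edgeR, and passed without mature library 3 (adjusted p = 0.000589), with a replicate block (adjusted p = 0.0320) and after all libraries were thinned to equal depth (adjusted p = 0.0388). Aromatase, Cyp19a1, was below the filter.

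Of 15 paracrine ligands and receptors, 13 were tested, with 3 higher in mature cells (Areg, Wnt4, Cxcr4), 2 higher in LP (Igf1r, Ramp1) and a median log2 fold change of 0.165. The insulin-like growth factor receptor Igf1r was at 118 ± 29.3 CPM in LP and 16.8 ± 6.57 CPM in mature cells, a log2 fold change of 2.80. Ramp1, a subunit of the receptor for a peptide made from Calca, had a log2 fold change of 2.02. Egfr, the receptor for amphiregulin, did not pass with all 8 libraries (log2 fold change 0.88, adjusted p = 0.186 by edgeR) and passed without mature library 3 (1.64, adjusted p = 0.00392). Areg and Wnt4 were also counted among the response genes above, and Areg is among the hormone-sensing markers. The counts per list in each direction stand beside shares of 10.9% (LP) and 13.8% (mature cells) over all tested genes.

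**Figure D4:**
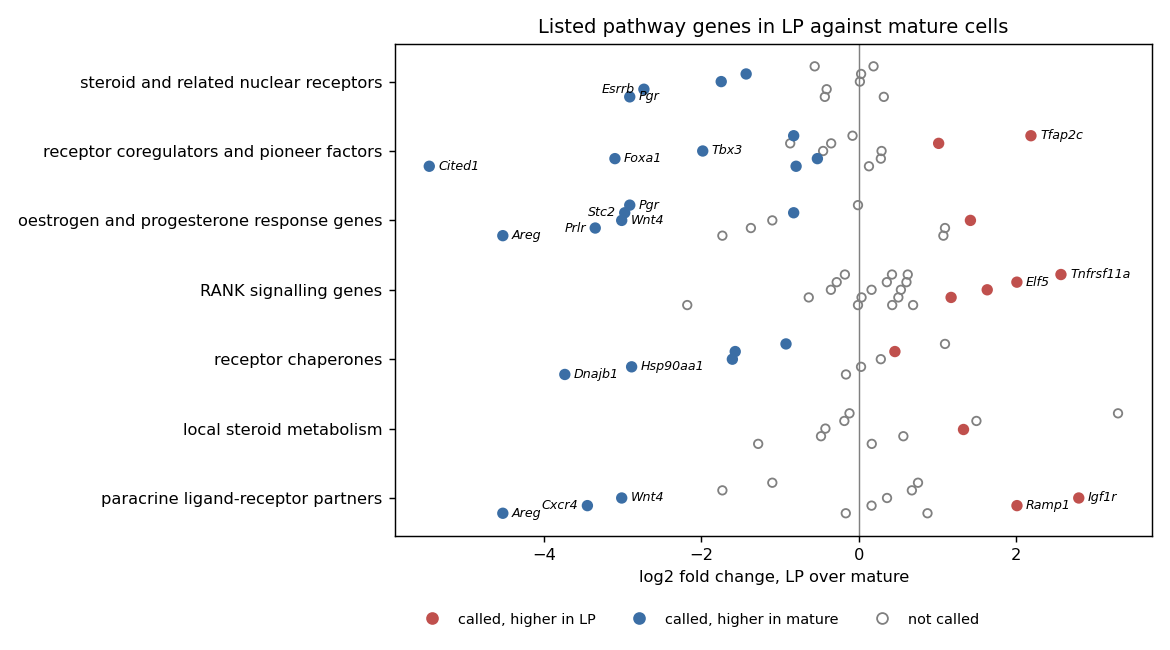
Log2 fold change of LP over mature cells (x axis) for every tested gene of 7 lists (y axis), with vertical offsets within a list only to separate points. Filled red and blue points passed an adjusted p of 0.05 in favor of LP and of mature cells, respectively, open points did not pass, and names are given for passing genes with large differences. In the RANK list the 4 passing genes, with Tnfrsf11a among them, are all higher in LP. In the nuclear receptor list the 4, with Esr1 and Pgr among them, are all higher in mature cells. Over all tested genes, 10.9% were higher in LP and 13.8% in mature cells.

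For each of the 6 genes, the tested genes with the most similar profile over the 8 libraries were found by the root mean square difference of centered log2 CPM. Closest to Esr1 were Gm16973 (0.238), Osbpl5 (0.279) and Ly6d (0.287), and like Esr1 these were lowest among mature libraries in library 3. Closest to Pgr were 4921518K17Rik (0.220), Prlr (0.278) and Tlcd4 (0.279). Closest to Tnfrsf11a were Hlf (0.228), Cmas (0.238) and Pitpnc1 (0.249), all highest among mature libraries in library 3. The nearest gene to Cited1, Ptn, was less similar (0.610). Nothing matched Tnfsf11 closely, and its nearest genes were Ckap2l (1.09), the mitotic cyclin Ccnb2 (1.19) and the stress-induced Gdf15 (1.23). Ccnb2 was at 19.3 CPM in mature library 3 and at most 3.47 CPM in any other library. For Greb1 the nearest were Slc43a3 (0.430), Il7 (0.437) and Selenom (0.450), over a range of few counts. These distances were computed over libraries of both fractions and are descriptions.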

How the data were processed

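RNA-seq of 4 LP and 4 mature luminal samples was analyzed. According to the methods and the labels, the 51-bp reads were cleaned of adapters by cutadapt 4.2 and mapped by Bowtie2 2.3.5.1 onto mm10, the versions being those of the submitters' processing notes. The authors deposited raw read counts per gene, as whole numbers without normalization. The counting program, its annotation and its use of strand are not given in the sources used here. Symbols and positions came from RefSeq (GRCm38.p6, the same build as mm10), which matched 24570 of 24594 IDs. Exon lengths came from GENCODE vM21. The 6 genes, the gene lists and the tests were chosen with earlier results of these data known.

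Counts were analyzed in R 4.3.3 with edgeR 4.0.16 (TMM factors, filterByExpr by fraction, quasi-likelihood F-test, Benjamini-Hochberg adjustment over 12816 genes, threshold 0.05), without a replicate block, since the methods state none. The SE was taken from the F statistic (the size of the log2 fold change over the root of F). No count was added to CPM. Exact permutation tests used scipy 1.17.1. The methods state fewer biological replicates per condition than the 4 in the table, and all libraries were used. Replicates differed beyond counting noise, at a chi-square over degrees of freedom from 11.95 to 89.0. The pathway gene Sts and the marker Hbb-bs were not analysed here. The result of 1 listed receptor is not reported here. Of each list, up to 3 passing genes in each direction with a mean log2 CPM of at least 3 are named, besides the receptor paralogs, Areg, Wnt4, Calca and Tnfrsf11b. Esrrb, Ccnd1, Traf5, Cyp1b1, Cyp19a1, Gper1, Egfr, Stc2, Nrip1, Cxcr4, Fkbp5, Rspo1, Lgr4, Pgrmc1 and Ncoa1 were named after their values were seen. Alternatives were 20 planned settings, which included DESeq2 1.42.0, and 1 added later, which combined the replicate block with no filter. The tests were checked on simulated counts.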

Additional observations from a re-analysis of the deposited data

Results flagged for a closer look

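In groups of 4 libraries, the gap between the most distant library and its nearest neighbor was compared with the range of the group, and a gap above Dixon's 95% critical value set a library apart. The groups came from the 6 genes, the receptor paralogs, Areg, Wnt4, Calca, Tnfrsf11b and the genes named by rule from the lists. Other named genes, among them Cyp1b1, Egfr, Fkbp5 and Rspo1, were not examined. Of the 57 groups examined, 10 passed, where chance gives about 1 in 20, or 2.85. Of the 6 genes, Greb1 passed in LP with library 2 at 2.88 CPM, and Tnfsf11 passed in mature cells with library 3 at 23.1 CPM. Calca passed in both fractions, with LP library 3 at 55.8 CPM and mature library 3 at 177 CPM. Tfap2c passed in mature cells, with library 3 at 67.7 CPM. Among the chaperones, Dnajb1 passed with LP library 3 at 199 CPM and mature library 3 at 3244 CPM, Hsp90ab1 with LP library 3 at 2358 CPM and mature library 3 at 11580 CPM, and Hsp90aa1 with mature library 3 at 4031 CPM. In 9 of these 10 groups the library set apart was numbered 3.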

How the results depend on the processing

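Under 21 alternatives, Pgr, Cited1 and Tnfrsf11a kept their direction and an adjusted p under 0.05, and Esr1 did so in 20, the exception being the fit without both libraries numbered 2 (log2 fold change -1.62, adjusted p = 0.0654). With libraries left out, the log2 fold changes ran from -2.03 to -1.48 for Esr1, from -3.38 to -2.60 for Pgr, from -6.14 to -5.07 for Cited1 and from 2.32 to 3.03 for Tnfrsf11a. The mean of Tnfsf11 in mature minus LP libraries, 5.77 CPM with all libraries, ran from 0 (without mature library 3) to 7.70 CPM, and that of Greb1 from -0.406 to 0.614 CPM. The count of genes past the threshold, 3161 with all libraries, was 1808 without both libraries numbered 1 and 1615 without both numbered 2, and ran from 1615 to 3414 over all fits with libraries left out. The listed genes past the threshold numbered 31, and 25 to 34 under the alternatives. The causes were not tested.

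Libraries with the same replicate number also shared the leading number of their deposited column names, and the labels do not say what that number marks. The residuals of same-numbered libraries correlated across genes with r from 0.0618 to 0.148, above 0.1 in 2 of 4 pairs. Differently numbered libraries had r from -0.156 to 0.0779, and 7 of 8 libraries correlated best with their own number. The main fit and the permutation tests left this possible pairing out. With a replicate block, 3027 genes passed, 2757 of them shared, and the log2 fold changes were -1.71 for Esr1 (adjusted p = 0.000921), -3.08 for Pgr, -5.58 for Cited1 and 2.69 for Tnfrsf11a, which changed no call among the 6 genes. In the pathway lists, Calca, Cyp1b1, Fkbp5 and Lgr4 passed with the block and Stub1 no longer did (adjusted p = 0.0556 by edgeR). With the block and no filter on low counts, the adjusted p of Tnfsf11 was 0.0595 by edgeR. At 3 counts per library as the limit, levels of Tnfsf11 under about 0.788 CPM could not be seen.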

Other observations

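Of the genes in the pathway lists, 6 crossed the threshold when mature library 3 was left out, and of the cell type markers Aldh1a3, Dcn and Oxtr then passed. Pgrmc1, Fkbp5, Cyp1b1 and Egfr passed without it, and Ncoa1 and Stub1 no longer did. Fkbp5, a receptor co-chaperone and glucocorticoid and progesterone target, had a log2 fold change of 1.10 (adjusted p = 0.1099 by edgeR) with all libraries and 1.55 (adjusted p = 0.0330) without it. Rspo1, an R-spondin whose expression follows RANK signaling, was at 1.597, 0, 11.3 and 4.99 CPM in LP and at 0, 0, 14.3 and 1.36 CPM in mature libraries, with the highest level of each fraction in the library numbered 3.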
